A study of Homo sapiens with 4 samples.

Results

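The 10 genes described here belong to the PIWI-interacting RNA (piRNA) pathway or to the Tudor domain family around it. They are the Tudor domain genes TDRD1, TDRD3, TDRD5, TDRD6, TDRD7 and TDRD9, the Argonaute family genes PIWIL1, PIWIL2 and PIWIL4, and MAEL. They are 10 of 27193 gene names on the array, and their probes were taken as every non-control probe whose gene name in the scanner files is one of the 10, which gave 13 probes on 40 spots. The set was chosen by a measured value of the same contrast: 1 of 2 TDRD1 probes was well above background on both arrays of cells given miR-511 mimic and on neither control array. The detection of that probe and the differences of all members between the mimics are therefore given as a description.

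The cells were THP1, an established human monoblastic acute myeloid leukemia line that carries the MLL-AF9 fusion gene. They were transfected once with 30 nM of a synthetic double-stranded RNA that supplies the mature miRNA hsa-miR-511-5p, or with 30 nM of negative control #1 mimic, and RNA was taken on day 2. Each treatment was done in 2 independent experiments with 1 single-dye Agilent whole genome array each, so every value rests on 2 arrays per treatment, all on 1 slide, and the comparison asks which transcripts of monoblasts respond to miR-511. No untransfected cells and no second control mimic were on these arrays. Between 64.8% and 69.3% of 34127 probes were well above background per array. Of the monoblast and monocyte markers, 11 were measured and 10 of them were well above background on all 4 arrays, among them CD33, CSF1R, MPO and SPI1. Of 11 germ cell markers, 5 were well above background on all 4 arrays (NANOS3, PRM1, PRM2, SYCP1 and TEX101) and 5 on none (ACRV1, DAZL, DDX4, DPPA3 and TNP1).

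piRNAs are small RNAs bound by PIWI proteins, a germline branch of the Argonaute family, and they silence transposable elements in developing germ cells by cleaving transposon transcripts and by directing DNA methylation. Tudor domains bind methylated arginines, and Tudor proteins use them to hold PIWI proteins in cytoplasmic granules of germ cells, where piRNAs are made. The pathway is known from testis and ovary. Some members, such as TDRD3 and TDRD7, also work in other tissues, in translation and RNA granules.

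The sequences that matter here are those of the mimicked miRNA and of the probes whose detection sets the account. The mature miRNA, from RefSeq at chr10:17845122-17845142 of GRCh38.p14 on the plus strand, is shown with its seed (bases 2 to 8) in capitals, and the first 30 bases of each of 4 probes of 60 bases, from the scanner files, in lower case.
hsa-miR-511-5p: gUGUCUUUugcucugcaguca
TDRD1 upstream probe: agagtgcaaccaatcacctctagccacctg
TDRD1 downstream probe: cctgctgtgtccacaaccttagaaatctgt
TDRD3 probe: agccagaaaaaatactagaatcatctattc
PIWIL1 probe: ctaacggtaattgtggtgaagaaaagagtg
Both TDRD1 probes are shown because they report different things for 1 gene, TDRD3 because it was detected evenly, and PIWIL1 because none of its spots was detected. The motif AAAGACA, the complement of the seed, was in 0 of the 13 member probes on either strand, against 0.970% of all probes on the sense strand. Where in a transcript a probe lies was not analysed here, and the probes cover only a small part of each transcript.

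By gene, the members fell into a detected and an undetected group. TDRD1, TDRD3, TDRD7 and PIWIL4 each had a probe well above background on all 4 arrays. The other 6 genes, TDRD5, TDRD6, TDRD9, PIWIL1, PIWIL2 and MAEL, had none on any array. "Well above background" is the scanner software's call that a spot's background-subtracted intensity is positive, significant and clear of the background noise. The lowest background-subtracted intensity that met it was between 10.8 and 12.7 per array. By gene, detection was the same with both mimics and in both experiments. By probe, 4 of the 13 member probes were well above background on all 4 arrays and 8 on none. Of all 34127 probes, 63.3% were well above background on all 4 arrays and 28.9% on none. These shares are by probe, and none was counted by gene.

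**Figure D1:**
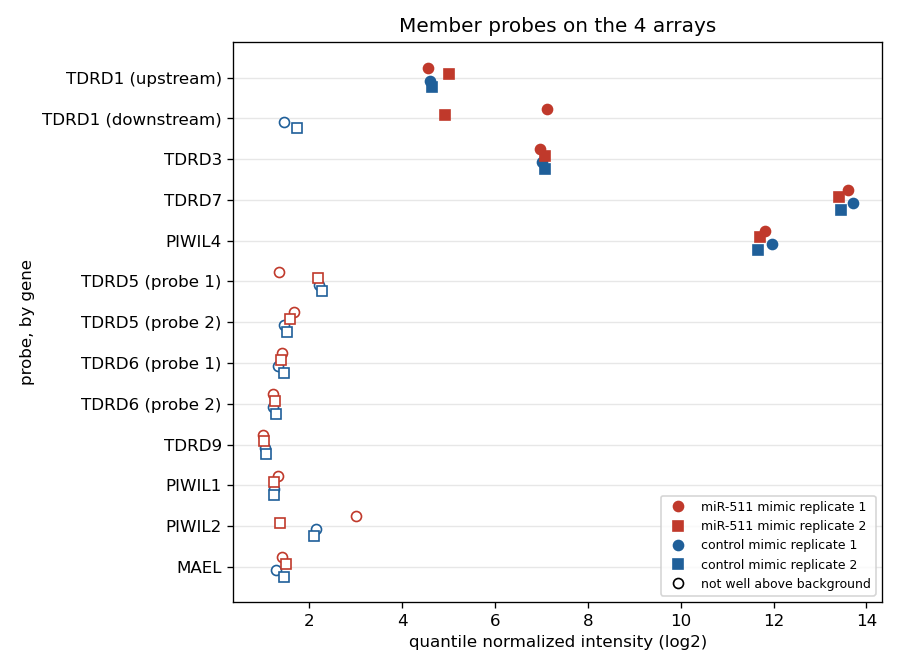
Quantile normalized intensity (log2, horizontal axis) of the 13 member probes on each array, with red for miR-511 mimic, blue for control mimic, circles for experiment 1 and squares for experiment 2. Open symbols were not well above background, and the downstream TDRD1 probe is the one row that holds both filled (7.11 and 4.92) and open symbols (1.46 and 1.74).

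TDRD1, a germ granule scaffold with several Tudor domains that binds PIWI proteins, has 2 probes that lie 5994 bases apart on chromosome 10 in the hg19 annotation of the files. The upstream probe, at chr10:115985909-115985968, was well above background on all 4 arrays. Its normalized log2 intensity in experiment 1 was 4.56 with miR-511 mimic and 4.61 with control mimic. In experiment 2 it was 5.00 with miR-511 mimic and 4.64 with control mimic. The treatments overlapped, since the miR-511 array of experiment 1 was the lowest of the 4 and that of experiment 2 the highest. The fitted difference, miR-511 minus control, was 0.15 (SE 0.18, n = 2 arrays per treatment), and limma's adjusted p was 1.00. This probe was the detected member nearest to the limit of detection, with background-subtracted intensities of 22.2, 29.3, 37.8 and 28.0.

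The downstream TDRD1 probe, at chr10:115991963-115992022, gave the pattern by which the genes were picked. In experiment 1 its normalized log2 intensity was 7.11 with miR-511 mimic and 1.46 with control mimic. In experiment 2 it was 4.92 with miR-511 mimic and 1.74 with control mimic. Both miR-511 arrays were above both control arrays, with a mean of 6.01 ± 1.55 (SD, n = 2) against 1.60 ± 0.20 (SD, n = 2). The values of the control arrays are not measurements of a level, and their SD is not a spread of the probe. There the background-subtracted intensity was -1.98 in experiment 1 and -0.62 in experiment 2, and the scanner software had put a small positive surrogate in its place. On the miR-511 arrays the background-subtracted intensity was 99.1 in experiment 1 and 27.2 in experiment 2.

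Against such surrogates only an approximate bound on the fold is meaningful. With each control array set to the lowest signal well above background on that array, the downstream probe was 7.16-fold higher with miR-511 mimic. By experiment it was 17.5-fold (experiment 1) and 2.93-fold (experiment 2). The bound is not strict, because some probes not well above background read higher than the log2 values used, 2.98 and 3.37. A GPAT2 probe read 3.38 on the control array of experiment 1, and a MOV10L1 probe 3.78 on that of experiment 2. This approximate bound is the difference of mean normalized log2 values, written as a fold, and takes the 2 miR-511 spots as they were scanned. The difference fitted to the surrogates themselves was 4.42 on the log2 scale (SE 0.77), and limma's adjusted p was 1.00. Both TDRD1 probes are annotated to the gene's RefSeq transcript, and of the 3 Ensembl transcripts listed for each, 1 is shared. Which TDRD1 transcripts the cells held cannot be told from 2 probes that disagree.

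The detection pattern of the downstream probe was rare on these arrays. It was shared by 17 of 34127 probes, or 0.0498%. The opposite pattern, well above background on both control arrays and on no miR-511 array, was found for 181 probes. Patterns that follow the experiment were found for 91 probes (experiment 1 alone) and 65 probes (experiment 2 alone).

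The downstream TDRD1 spot itself was uneven on the arrays where it was bright, although the scanner software did not mark it as non-uniform on any array. The software left out 5 and 11 high pixels of this spot on the miR-511 arrays of experiments 1 and 2, and 2 on each control array. The SD over the pixels of the spot was 61.8% of its mean in experiment 1 and 57.5% in experiment 2 with miR-511 mimic. With control mimic it was 22.9% in experiment 1 and 20.8% in experiment 2. Spots of like brightness (mean signal within 10%) on the miR-511 arrays had a median of 19.6% in experiment 1 and 22.6% in experiment 2, and over 99% of them were more even than the TDRD1 spot. Its median pixel was also below its mean: 120 against 140 in experiment 1, and 57 against 72.1 in experiment 2. On the control arrays the median pixel was 43 and 44, for means of 43.8 and 42.9. The upstream TDRD1 spot stayed between 19.0% and 25.0% on all 4 arrays. The probe was printed once, so no second spot could be read. With normexp background correction, which here adds an offset of 50 to every spot and so shrinks the log2 differences of dim ones, the difference was 0.89 on the log2 scale from the mean pixel and 0.65 from the median pixel (added after the values were seen), and the latter no longer passed the unadjusted threshold in limma.

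The spots around it were also described, after the values were seen. Of the 6 spots that adjoin the downstream TDRD1 spot, 4 were well above background on all 4 arrays. OR52A1, an olfactory receptor gene whose spot adjoins it, had processed intensities of 28.8 with miR-511 mimic and 10.4 with control mimic in experiment 1. In experiment 2 they were 56.0 with miR-511 mimic and 9.17 with control mimic, so this spot shared the TDRD1 pattern of detection. The OR52A1 pixel SD was 63.5% of the mean on the miR-511 array of experiment 2. On the miR-511 array of experiment 1 it was 29.1%, above the 95th percentile of spots of like brightness there (28.1%). On the control arrays of experiments 1 and 2 it was 26.5% and 22.8%. JAKMIP3, another adjoining spot, was well above background only on the miR-511 array of experiment 1, with a processed intensity of 22.4 against 2.66, 3.07 and 3.27 elsewhere. Of the 17 probes with the TDRD1 pattern, 5 had a higher pixel SD on both miR-511 arrays than on both control arrays. On both miR-511 arrays 2 lay above the 95th percentile of spots of like brightness. These 2 were the downstream TDRD1 spot itself and the adjoining OR52A1 spot. The part of the spots' position in the result was not tested.

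**Figure D2:**
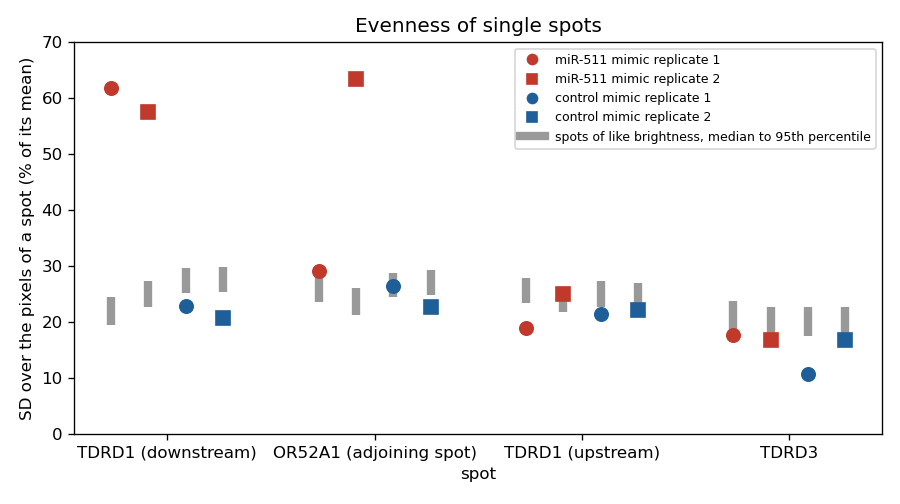
SD over the pixels of a spot as a percent of its mean (vertical axis) for 4 spots on the 4 arrays, with grey bars from the median to the 95th percentile of spots of like brightness on the same array. The downstream TDRD1 spot stands at 61.8% and 57.5% on the miR-511 arrays and the adjoining OR52A1 spot at 63.5% on 1 of them, while the upstream TDRD1 spot and the TDRD3 spot stay at 25.0% or below.

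OR52A1 was also among the 3 named probes whose values ran most like those of the downstream TDRD1 probe. Likeness was the distance between centred log2 values over the 4 arrays, among the probes with the same detection. The nearest was KLK12, a kallikrein-related serine protease gene, at a distance of 2.25. Its differences between the mimics were 2.60 in experiment 1 and 2.63 in experiment 2 on the log2 scale. OR52A1 followed at a distance of 3.02, with differences of 1.86 and 2.48, and C8orf74 at 3.68, with 1.49 and 0.26. Unlike OR52A1, the KLK12 and C8orf74 spots do not adjoin the TDRD1 spot. On the miR-511 arrays of experiments 1 and 2 the pixel SD was 23.9% and 30.0% of the mean for KLK12. In experiment 2 this was above the 95th percentile of spots of like brightness (28.2%). For C8orf74 it was 20.4% and 24.4%. The TDRD1 differences were 5.66 in experiment 1 and 3.18 in experiment 2, but both were taken against surrogates on the control arrays. The other 3 probes were not well above background on the control arrays either. KLK12 was positive and significant against background on only 3 of the 4 arrays, with control values of 1.60 and 1.13, so its differences are uncertain too. The approximate bounds for TDRD1 were 17.5-fold in experiment 1 and 2.93-fold in experiment 2, so its sizes are not ranked against those of the other 3. The detection that chose the TDRD1 probe also chose these 3 probes.

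TDRD3 and TDRD7 are the Tudor members with roles outside the germline. TDRD3 reads methylated arginines on histones and RNA polymerase, and works with topoisomerase 3 beta on messenger RNAs. Its probe, at chr13:61103254-61103313, read 6.96 with miR-511 mimic and 7.02 with control mimic in experiment 1. In experiment 2 both mimics read 7.08. The treatments overlapped, and the fitted difference was -0.027 (SE 0.10), with an adjusted p of 1.00 from limma.

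TDRD7, a component of RNA granules in lens and germ cells, has a probe printed 10 times at chr9:100258236-100258295. Its normalized log2 intensity was 13.60 with miR-511 mimic and 13.70 with control mimic in experiment 1. In experiment 2 it was 13.40 with miR-511 mimic and 13.46 with control mimic. The control array was the higher one in each experiment, but the treatments overlapped across experiments. The SD over its 10 spots on an array was 0.049 to 0.093 on the log2 scale, and the mimics differed by -0.11 in experiment 1 and by -0.057 in experiment 2. The fitted difference, miR-511 minus control, was -0.081 (SE 0.14), and limma's adjusted p was 1.00.

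Of the 3 PIWI genes, PIWIL4 alone was detected. In germ cells its protein, a nuclear PIWI protein, directs DNA methylation at transposons. The probe at chr11:94354223-94354282 read 11.80 with miR-511 mimic and 11.97 with control mimic in experiment 1. In experiment 2 it read 11.71 with miR-511 mimic and 11.67 with control mimic. The sign of the difference turned between the experiments (-0.17 and 0.038), and the fitted value was -0.064 (SE 0.14), with an adjusted p of 1.00 from limma. Its spot was even, with a pixel SD of 8.12% to 9.66% of the mean.

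Over the 5 member probes that entered the test, 1 passed an unadjusted p below 0.05, the downstream TDRD1 probe, beside 2.20% of 22638 probes tested (498 probes). Nothing is read from this count, because the set was picked on this contrast. No member and no other probe passed after Benjamini-Hochberg adjustment. The other 4 tested probes had differences of at most 0.15 in size, their smallest unadjusted p in limma was 0.432, and the median absolute difference over all tested probes was 0.079.

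The spread between the experiments was not used to pick the genes. Between experiment 2 and experiment 1, with the mimic as a term in limma, 0 of the 5 tested member probes passed an unadjusted p below 0.05. Over all tested probes 11.6% passed (2615 probes). The downstream TDRD1 probe entered this test only through the miR-511 arrays. It held surrogates on both control arrays, so its value of -0.96 (SE 0.72) is not read. None of all tested probes passed after adjustment, where the smallest p was 0.388. TDRD7 was lower in experiment 2 by -0.21 on the log2 scale (SE 0.078, limma adjusted p 0.453) and PIWIL4 by -0.20 (SE 0.097, limma adjusted p 0.507). The upstream TDRD1 probe was 0.24 higher in experiment 2 (SE 0.14, limma adjusted p 0.546) and TDRD3 0.094 higher (SE 0.079, limma adjusted p 0.647). For all 4 of these probes the difference between experiments was larger in size than the fitted difference between mimics, although none passed the threshold.

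**Figure D3:**
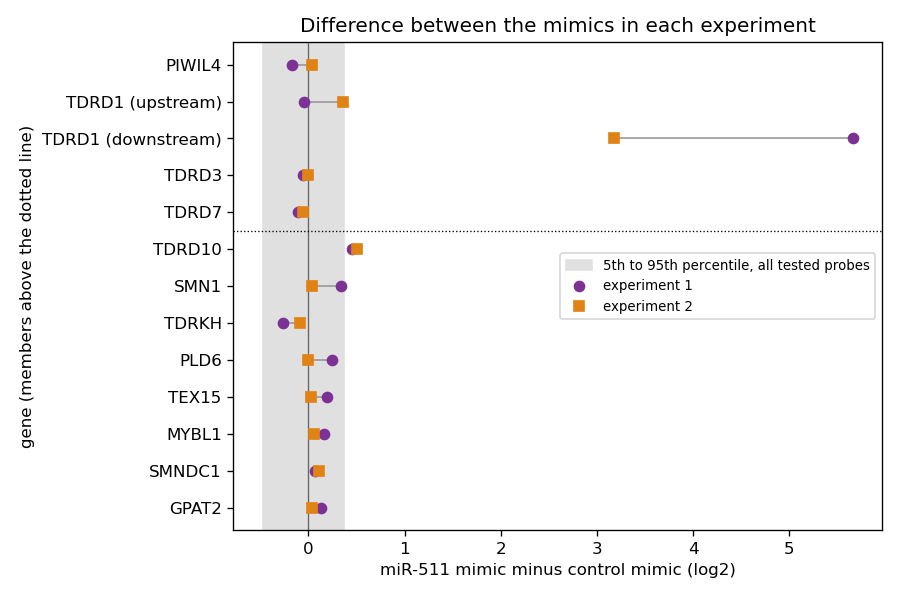
Log2 value with miR-511 mimic minus that with control mimic (horizontal axis) in experiment 1 (circles) and experiment 2 (squares) for the 5 tested member probes and 8 other pathway or Tudor genes, over the 5th to 95th percentile of all tested probes (grey, the wider limit of both experiments). The downstream TDRD1 probe lies at 5.66 and 3.18, drawn with surrogate values for the control arrays, and the other probes lie between -0.26 and 0.51.

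The 6 undetected genes were covered by 8 probes, of which MAEL and PIWIL1 had 10 copies each. Of the 98 spots used over the 4 arrays, 87 (88.8%) held a surrogate value, so their log2 values have no order and no fold is given. TDRD5, a Tudor and LOTUS domain protein needed for spermatogenesis, has 2 probes on chromosome 1. TDRD6, a large scaffold of the chromatoid body, has 2 probes on chromosome 6, and TDRD9, an RNA helicase with a Tudor domain, has 1 on chromosome 14. Both TDRD6 probes, the TDRD9 probe and 1 TDRD5 probe were at surrogate values on all 4 arrays. That TDRD5 probe is mapped to chr1:179621284-179631249, a span of 9966 bases for 60 bases of probe, so its match is split in the genome.

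The other TDRD5 probe, at chr1:179623437-179623496, came closer to detection. Its processed intensity in experiment 1 was 2.55 with miR-511 mimic, a surrogate, and 5.35 with control mimic. In experiment 2 it was 4.83 with miR-511 mimic and 4.69 with control mimic. On those 3 arrays the spot was positive and significant against its local background but not well above it.

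PIWIL1 and PIWIL2 are the cytoplasmic PIWI proteins that cleave transposon transcripts. The PIWIL1 probe, at chr12:130851685-130851744, held a surrogate in all 36 of its usable spots. The PIWIL2 probe is also mapped across a gap, 1118 bases on chromosome 8. Its processed intensity in experiment 1 was 6.62 with miR-511 mimic and 5.15 with control mimic. In experiment 2 it was 2.72 with miR-511 mimic, a surrogate, and 4.10 with control mimic. PIWIL2 and the second TDRD5 probe were thus the members just outside detection: the highest background-subtracted intensity of the undetected probes printed once was 6.16. MAEL, a germ granule protein that acts in transposon silencing, had 5 positive and significant spots among 38 usable ones and 33 surrogates. These values do not show that the genes were silent, only that they were under the array's limit of detection.

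Other genes of the pathway and of the Tudor family were read from a list of 29, all of them on the array with 42 probes. By gene, 16 were well above background on all 4 arrays, 3 on some arrays (MORC1, MOV10L1 and PNLDC1) and 10 on none. The share by gene over the whole array was not counted, so nothing is read from these counts. By probe, 63.3% of all probes were well above background on all 4 arrays and 28.9% on none. The undetected ones included DDX4, the germ cell RNA helicase VASA, ASZ1 and PIWIL3. Of the 23 probes tested for 17 of the genes, 0 were higher and 0 lower at an unadjusted p below 0.05 in limma, and the smallest unadjusted p was 0.113, for TDRD10. With the experiment as a block, TDRD10 alone passed. The share of all tested probes that pass with the block was not counted, so nothing is read from this count. Their differences between mimics were positive for 13 and negative for 10 probes, from -0.18 for MORC1 to 0.48 for TDRD10, with a median of 0.050 beside 0.0098 for all tested probes.

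Of the genes of that list well above background on all 4 arrays, the Tudor genes with the largest differences were TDRD10, SMN1 and TDRKH. TDRD10, a Tudor protein with an RNA recognition motif, has 3 probes. The one with the highest mean, well above background on 3 of the 4 arrays, read 4.90 with miR-511 mimic and 4.45 with control mimic in experiment 1, and 4.47 and 3.96 in experiment 2. Both miR-511 arrays were above both control arrays, and within each experiment the mimics differed by 0.45 and 0.51. The fitted difference was 0.48 (SE 0.24), with an unadjusted p of 0.113 in limma, and with the experiment as a block the SE was 0.079 and limma's unadjusted p 0.00917. The second TDRD10 probe, well above background on all 4 arrays, differed by -0.48 in experiment 1 and 0.85 in experiment 2, and the last was well above background on none. SMN1, which assembles spliceosomal ribonucleoproteins, differed by 0.19 (SE 0.12), with log2 values of 13.83 and 13.49 in experiment 1 and 13.61 and 13.57 in experiment 2 for miR-511 and control mimic. Its near-identical copy SMN2 may bind the same probe, so the value is uncertain as to the gene. TDRKH, a mitochondrial partner of PIWI proteins in piRNA trimming, differed by -0.17 (SE 0.10), while its second probe differed by 0.096. SMNDC1, a splicing factor, differed by 0.091.

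Among the factors of piRNA production, PLD6, a mitochondrial endonuclease, differed by 0.12 (SE 0.11). MYBL1, the transcription factor of pachytene piRNA clusters, differed by 0.11 (SE 0.094), and GPAT2, a mitochondrial outer membrane protein of the pathway, by 0.085 (SE 0.093). TEX15, a nuclear partner in transposon methylation, differed by 0.11 (SE 0.38) between mimics and by 0.75 between experiments, with log2 values of 5.05 and 4.85 in experiment 1 and 5.72 and 5.69 in experiment 2. For TEX15 both arrays of experiment 2 were above both arrays of experiment 1, and limma's adjusted p for that contrast was 0.388.

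**Figure D4:**
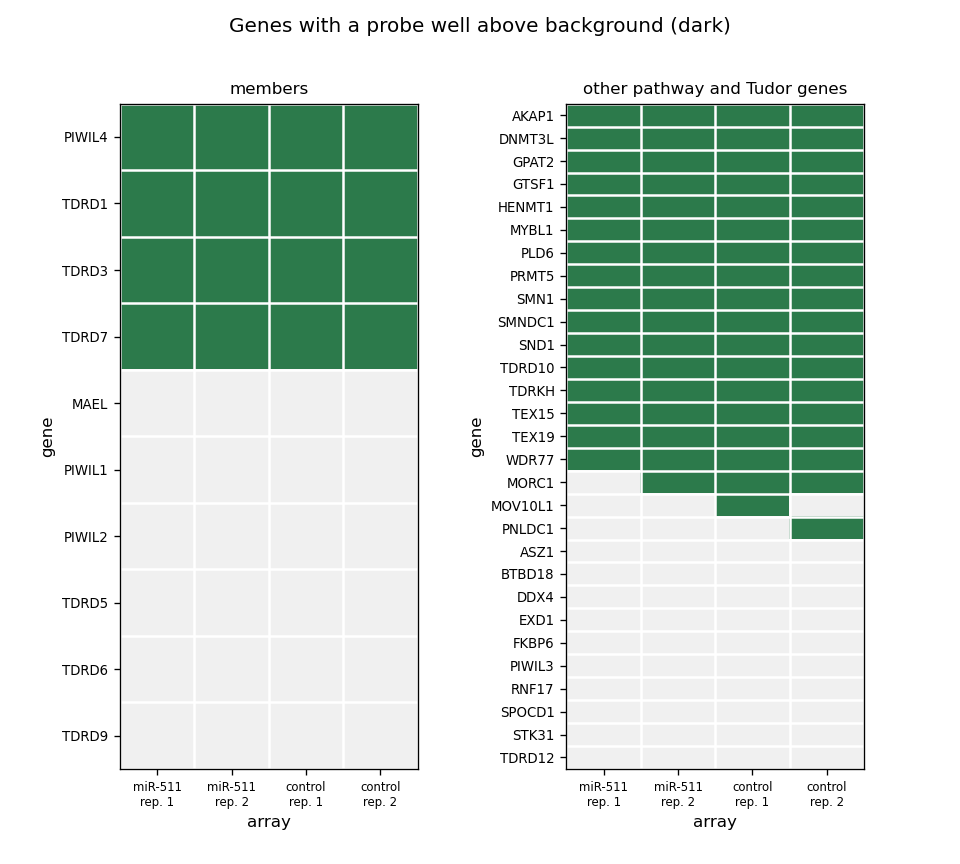
Detection of the 10 members (left) and of 29 other pathway and Tudor genes (right) on each array, where dark cells mark genes with at least 1 probe well above background. Among the members 4 genes are dark on all arrays and 6 on none, and in the other list 16 are dark on all arrays and 10 on none.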

How the data were processed

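Total RNA of THP1 cells was labelled with Cy3 and hybridized to Agilent Human Whole Genome Microarrays 4x44K v2. The authors deposited 1 scanner file per array with the intensity of each spot: the background-subtracted, detrended processed signal (low spots carry a surrogate value), the mean and median pixel signal, and background. The processing notes name Agilent Feature Extraction 10.5.1.1 and the file headers 10.7.3.1. They also deposited a table of quantile normalized log2 values, which keep the rank order of the processed signal within every array (Spearman correlation 1) and were an alternative here. The deposited scanner files also hold a p-value per spot, computed by that software for equality of spot and background, which lies behind its call of positive and significant spots, and probe names with hg19 coordinates.

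The log2 of the processed signal was taken for 43118 non-control spots, 232 to 301 spots per array marked non-uniform or population outlier were left out (0 to 3 of them members'), and arrays were quantile normalized with limma 3.58.1 in R 4.3.3. Spots of a probe were then averaged. A probe printed 10 times was detected when more than 50% of its spots were well above background. The 22638 probes that both arrays of either treatment showed well above background were fitted with lmFit and eBayes. The p-values were two-sided, with thresholds of 0.05 unadjusted, as for the study's moderated t-test, and Benjamini-Hochberg adjusted. The study also required a t-test p below 0.05 over the copies of a probe, which was not applied here. All 13 member probes matched RefSeq genes (GRCh38.p14, names only) by accession, and HENMT1 is C1orf59 in the files. The functions were tested on simulated data. The number of arrays limits the precision, and for probes printed once the single spot does too.

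The experiment number in the labels pairs the arrays, since the study describes 2 independent experiments. Over probes, same-numbered arrays deviated from the mean of their treatment with a correlation of 0.271. The members, gene lists, tests and alternatives were chosen with earlier results of these data known. Named genes were the 10 members, up to 8 genes of the pathway list with the largest difference among those with a probe well above background on all 4 arrays (by the probe of highest mean), and the 3 probes most like the TDRD1 probe. Pixel and neighbour values of single spots and the genes named for an alternative were chosen after the values were seen. Alternatives were scaling to the 75th percentile, background correction by normexp with an offset of 50, keeping marked spots, the deposited table, no or a stricter filter on dim probes, an intensity trend, the replicate block, another detection call and leaving out each array.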

Additional observations from a re-analysis of the deposited data

How the results depend on the processing

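The downstream TDRD1 probe was higher with miR-511 mimic in each of the 10 alternatives that gave it a value. Nothing is read from this sign, because the probe was picked for its detection on the miR-511 arrays alone. The size of the difference depended on how dim spots were treated. The difference of 4.42 on the log2 scale became 0.89 with normexp background correction, which adds an offset of 50 to every spot. It became 0.65 with normexp on the median pixel, an alternative chosen after seeing the data, under which 0 member probes passed the unadjusted threshold. Leaving out each array gave 3.38 to 5.49. The member count was also 0 when only probes well above background on all 4 arrays were tested, since that drops this probe, and 1 under the other alternatives.

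With the replicate block the TDRD1 difference stayed 4.42 and 1 member probe passed, while 1 probe of the pathway list passed (TDRD10, higher by 0.48). How many of all tested probes pass with the block was not counted, so nothing is read from these counts. The pathway count was 2 with no filter on dim probes (STK31 lower and GPAT2 higher, both with probes never well above background) and 0 to 1 when an array was left out (PNLDC1 and MORC1, both lower). Between experiments 2 member probes passed with normexp (TDRD7 and PIWIL4) and 1 with the intensity trend (TDRD7). The share of all tested probes that pass was counted for none of the alternatives, so nothing is read from any of these member and pathway counts. The differences of the other 4 tested member probes stayed between -0.21 and 0.37 and never passed the threshold, and each changed sign in at least 1 alternative. By a looser detection call, positive and significant against background, PIWIL2 and TDRD5 were detected on some arrays, which made 6 genes in place of 4. limma offset variances of 0 after normexp. With 2 arrays per treatment and 1 spot for most probes, differences near the median SE over all tested probes (0.12) were not detectable.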
